A study of Mus musculus with 79 samples.

Results

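The genes described here make up the respiratory chain of the mitochondrion, and they come from the mitochondrial and the nuclear genome. Members were chosen by chromosome and gene symbol from the hypothalamus RNA-seq table: every row on the mitochondrial chromosome, the nuclear rows whose symbol starts with Nduf, Uqcr, Cox4, Cox5, Cox6, Cox7, Cox8 or Atp5, and Sdha, Sdhb, Sdhc, Sdhd and Cycs. This rule took 105 of the 25965 rows, 13 of them mitochondrial and 92 nuclear. It used no measured value, but the set was proposed with the RNA-seq results known, so that the RNA differences of its members are given as a description. Symbols ending in -ps or -rs were to be dropped, and Atp5l-ps1, an annotated pseudogene, stayed because its symbol ends in a digit. A prefix does not always name a subunit: Atp5l-ps1, Cox4nb (now Emc8, of a membrane protein insertion complex), Atp5sl (now Dmac2) and Atp5s are outside the complexes and are counted apart.

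The respiratory chain passes electrons from NADH and succinate through complexes I, II and III and cytochrome c to complex IV, which reduces oxygen. Complexes I, III and IV pump protons across the inner membrane, and complex V, the ATP synthase, uses the gradient to make ATP. The mitochondrial genome encodes core subunits of complexes I, III, IV and V, while complex II, cytochrome c and all other subunits are nuclear. Except for mt-Nd6, the mitochondrial protein genes are read from the same strand as parts of a long precursor RNA. Neurons draw most of their ATP from this chain, and nuclear genes for it commonly have promoters with CpG islands and sites for NRF1, ETS family factors and YY1.

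For RNA-seq, hypothalami of 5 +/+ mice and of 4 Δ/D329A mice were taken at about 14 weeks, all on a C57BL/6Babr background. Δ is a Dnmt3a allele deleted in the oocyte by Zp3-Cre and inherited from the mother, and D329A is a point mutation in the PWWP domain, which reads methylated histone H3. The +/+ animals come from the same crosses and carry neither allele, whereas in Δ/D329A animals the mutated allele is the only functional one. ChIP-seq libraries for H3K4me3, H3K27me3, H3K36me3 and input came from 3 hypothalami of each of the same genotypes, described as male. The study describes the RNA as female in its supplement and as male in a legend that covers both assays, so that the sex of the RNA samples is unclear. GEO's labels give the ChIP-seq controls as +/+, a list in the supplement writes +/-, and the labels were followed. Whole hypothalamus holds many cell types, and, in bulk RNA, less RNA per cell cannot be told apart from fewer cells of a type.

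A long stretch of the mitochondrial genome has a near-identical copy in the nucleus, and is described before the values of the mitochondrial genes. In an alignment of both reference sequences (GRCm38), positions 6390 to 11042 of the mitochondrial genome matched chr1:24611535-24616188 on the minus strand. Of 4654 aligned positions, 4651 were identical (99.936%). The 3 differences, counted from the start of the mitochondrial sequence with its base first, are A6393T inside mt-Co1, T9461C inside mt-Nd3, and a base of the nuclear copy that is absent after 9828, between genes. The 60 bases across each end of the stretch show where the likeness starts and stops, with positions that differ in capitals.
MT:6360-6419, first end: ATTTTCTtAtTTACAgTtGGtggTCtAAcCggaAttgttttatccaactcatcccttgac
chr1:24616159-24616218, minus strand: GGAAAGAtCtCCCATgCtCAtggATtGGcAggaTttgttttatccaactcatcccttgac
MT:11013-11072, last end: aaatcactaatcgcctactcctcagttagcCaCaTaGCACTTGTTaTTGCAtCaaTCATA
chr1:24611505-24611564, minus strand: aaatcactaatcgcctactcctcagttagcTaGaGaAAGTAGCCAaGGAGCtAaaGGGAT
The first 60 bases of mt-Co2, the gene for the subunit of complex IV that accepts electrons from cytochrome c, are the same letters in both genomes.
MT:7013-7072, start of mt-Co2: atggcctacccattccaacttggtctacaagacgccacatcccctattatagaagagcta
chr1:24615506-24615565, minus strand: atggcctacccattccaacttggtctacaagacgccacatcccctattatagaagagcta

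The reads were 50 bases long, so every stretch of 50 bases of each gene was looked up in the nuclear genome on both strands. For mt-Co2, mt-Atp8, mt-Atp6, mt-Co3 and mt-Nd4l 100% of these stretches occurred there, and for mt-Nd3 99%. The share was 62.2% for mt-Nd4 and 51.1% for mt-Co1, which lie across the ends of the copied stretch. It was 8.29% for mt-Nd2, 7.61% for mt-Nd5 and 0 for mt-Nd1, mt-Nd6 and mt-Cytb. A read that lies wholly in a copied stretch cannot be placed by its sequence, so that the values of the first 6 genes are uncertain, and those of mt-Nd4 and mt-Co1 are so in part.

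The deposited values, log2 reads per kilobase of exon scaled to library size (RPKM), gave back whole reads. Each library held 3874084 to 9976687 reads on genes, 33.3% to 54.3% of its mapped reads. The share was lowest in +/+ 5, +/+ 4 and Δ/D329A 2. The hypothalamic markers Sim1, Otp, Nkx2-1, Fezf1, Agrp, Pomc, Hcrt, Pmch, Oxt and Avp were all measured, and their summed level was 346 to 725 RPKM in +/+ and 400 to 597 RPKM in Δ/D329A. The sum hides single genes: of the 10, 5 were higher and 5 lower in Δ/D329A. Pomc and Sim1 were at −1.06 and −0.82 (limma adjusted p of 0.351 and 0.158), and Avp and Otp at 0.33 and 0.57. Dnmt3a itself was at 3.28 to 4.31 RPKM in +/+ and 2.84 to 3.30 RPKM in Δ/D329A (log2 difference −0.28, SE 0.13, limma adjusted p = 0.351), and since a count per gene does not separate the alleles this does not check the labels.

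Between the genotypes, the values of the 13 mitochondrial genes were lower in Δ/D329A by a median of 1.28 on the log2 scale. The nuclear members differed by a median of 0.14 in the other direction. The values of 6 of the 13 are uncertain, since their reads cannot be placed by sequence. Over the 5 mitochondrial genes with under 10% copied stretches the median was −0.34, with 1 higher and 4 lower in Δ/D329A. All 105 members passed the filter of 0.1 RPKM in at least 4 libraries, and 0 of the 13 mitochondrial and 0 of the 92 nuclear genes were called by limma at an adjusted p under 0.01. Of all 17852 genes tested, 19 were called, or 0.106%. At an unadjusted p under 0.05 were 8 mitochondrial members, all lower in Δ/D329A, and 2 nuclear ones, where 7.65% of all genes were (3.07% lower). A log2 difference of −1 or below was found in 7 mitochondrial and 0 nuclear members and in 1.07% of all genes. Since the set was proposed from this contrast, nothing is read from these counts. The count of mitochondrial genes called depended on the test and on 1 library: edgeR on the recovered reads called 5 (mt-Co1, mt-Co2, mt-Atp6, mt-Co3 and mt-Nd3, with 0.443% of all genes called), DESeq2 called 8 (with mt-Atp8, mt-Nd4l and mt-Nd4, 1.42% of all genes), and limma without +/+ 4 called 6 (mt-Co2, mt-Atp8, mt-Atp6, mt-Co3, mt-Nd3 and mt-Nd4l, 0.134% of all genes). The nuclear count was 0 under each of them.

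The difference between the genomes was seen library by library. In the 5 +/+ libraries the mean log2 RPKM of the 13 mitochondrial genes stood 5.03, 6.10, 5.71, 0.59 and 5.07 above that of the nuclear members. In the 4 Δ/D329A libraries it stood 0.03, 0.27, −0.04 and 0.42 above. The groups did not overlap, but +/+ 4 lay beside the Δ/D329A libraries and far from the other +/+ ones. Counted over the 5 mitochondrial genes with under 10% copied stretches, the distance was 4.26, 5.36, 5.31, 5.48 and 5.60 in +/+ and 4.68, 4.81, 4.68 and 5.04 in Δ/D329A. There the groups overlapped, +/+ 4 lay among the other +/+ libraries, and the mean difference between the groups was −0.40 instead of −4.33. Mitochondrial reads made up 2.70% ± 0.838 of reads on genes in +/+ (SD, n = 5) and 1.11% ± 0.108 in Δ/D329A (n = 4), and those of the 5 genes 0.760% ± 0.219 and 0.582% ± 0.0488.

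**Figure D1:**
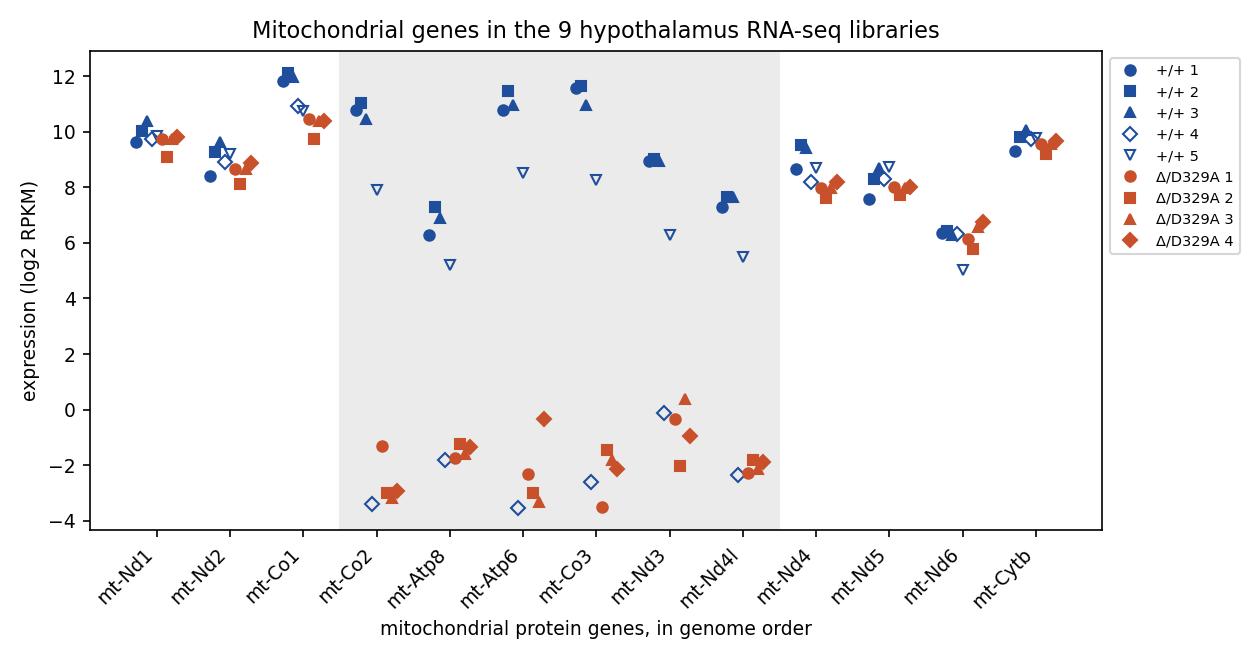
Expression (log2 RPKM) of the 13 mitochondrial genes in genome order in 9 hypothalamus libraries, blue for +/+ (open symbols, +/+ 4 and 5) and orange for Δ/D329A, each symbol a library. In the 6 shaded genes, of which 99% to 100% of the 50-base stretches also occur in the nuclear genome, +/+ 4 lies with the 4 Δ/D329A libraries and +/+ 5 lies between them and +/+ 1 to 3, while the unshaded genes span a narrow range.

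The 6 genes inside the copied stretch carried the large differences. For mt-Co2 the +/+ libraries held 22027, 22314, 12891, 1 and 2733 reads, and the Δ/D329A libraries held 4, 0, 1 and 1. For mt-Co3, the subunit of complex IV that completes its membrane core, there were 43547, 39569, 20961, 2 and 4086 reads in +/+ and 1, 3, 3 and 2 in Δ/D329A. For mt-Atp6, the proton channel subunit of complex V, there were 21888, 30446, 18081, 0 and 4203 reads in +/+ and 2, 0, 0 and 6 in Δ/D329A. In each of these genes +/+ 1 to 3 were high, +/+ 5 was several times lower, and +/+ 4 was as low as the Δ/D329A libraries, so that the groups overlapped.

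The shorter genes of the stretch had the same order of libraries. Reads of mt-Nd3, a membrane subunit of complex I, numbered 3143, 2834, 2273, 5 and 460 in +/+ and 4, 0, 6 and 2 in Δ/D329A. Reads of mt-Nd4l, also of complex I, numbered 849, 931, 793, 0 and 224 in +/+ and 0 in all 4 Δ/D329A libraries. Reads of mt-Atp8, a small subunit of complex V, numbered 290, 497, 324, 0 and 128 in +/+ and again 0 in all 4. With a floor of 3 reads in each Δ/D329A library and +/+ 4 counted as 0, the mean RPKM was at least 145-fold lower in Δ/D329A for mt-Nd4l and at least 64.4-fold lower for mt-Atp8, a mean that +/+ 1 to 3 dominate. These bounds cover counting error only. Reads of both genes cannot be placed by sequence, so the bounds are not limits on the change in transcript. The fitted log2 differences were −10.20 for mt-Co3, −9.96 for mt-Co2, −9.88 for mt-Atp6 and −7.35 for mt-Nd3, with SE of 2.52, 2.54, 2.66 and 1.66. These depend on the deposited convention that a gene without a read stands at 0.9 reads, and limma's adjusted p was 0.196 to 0.302 over the 6 genes. In +/+ 4 and 5 alone against Δ/D329A, chosen after the values were seen, the median over the 13 genes was −0.60 instead of −1.28.

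A gene annotated inside the nuclear copy was measured as well. Gm10222, at chr1:24612404-24612700 on the minus strand, spans exactly the copy of mt-Nd4l, positions 9877 to 10173 of the mitochondrial genome. It held 0, 0, 0, 143 and 0 reads in +/+ and 442, 0, 678 and 0 in Δ/D329A. In the libraries with reads its level was 31.1 RPKM in +/+ 4 and 102 and 172 RPKM in Δ/D329A 1 and 3. The libraries with reads on mt-Nd4l, +/+ 1, 2, 3 and 5, had none on Gm10222. Of the 5 libraries without a read on mt-Nd4l, +/+ 4 and Δ/D329A 1 and 3 had reads on Gm10222, and Δ/D329A 2 and 4 had none on either gene. Gm10222 was chosen after its values were seen (log2 difference 3.53, SE 2.28, limma adjusted p = 0.536). The part of read placement in the differences of the 6 genes was not tested.

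The 2 genes across the ends of the stretch showed smaller differences, and they were the members in which all +/+ libraries lay above all Δ/D329A libraries. For mt-Co1, the catalytic subunit of complex IV, the level was 3668, 4488, 4008, 1960 and 1736 RPKM in +/+ and 1398, 862, 1341 and 1345 RPKM in Δ/D329A. The lowest +/+ values were those of +/+ 4 and 5, and the difference was −1.28 (SE 0.53, 2.43-fold, limma adjusted p = 0.351). For mt-Nd4, a proton-pumping subunit of complex I, the level was 402, 744, 680, 295 and 418 RPKM in +/+ and 251, 195, 252 and 293 RPKM in Δ/D329A, and the difference was −0.96 (SE 0.33, 1.95-fold, limma adjusted p = 0.351). The groups nearly touched in mt-Nd4, at +/+ 4 and Δ/D329A 4. Over all genes tested, 1.24% did not overlap with +/+ above and 1.78% with Δ/D329A above, against 2 of 13 mitochondrial members with +/+ above and 0 of 92 nuclear members in either direction.

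The 5 genes with few or no copied stretches overlapped between the genotypes. mt-Cytb, the cytochrome b of complex III, was at 626, 908, 1058, 855 and 877 RPKM in +/+ and 764, 587, 762 and 810 RPKM in Δ/D329A, a difference of −0.23 (SE 0.34). mt-Nd1 was at 988 ± 214 RPKM in +/+ and 785 ± 164 RPKM in Δ/D329A (SD), and mt-Nd2 at 563 ± 166 and 388 ± 81.2 RPKM. mt-Nd5 was at 332 ± 93.4 and 246 ± 21.9 RPKM. In these complex I genes Δ/D329A 2, the library with the fewest reads, was the lowest Δ/D329A sample, and the differences were −0.34, −0.51 and −0.38 with SE of 0.36, 0.33 and 0.28. mt-Nd6, the complex I gene read from the other strand, had the opposite sign (0.23, SE 0.32). It was at 81.7, 86.1, 77.2, 80.8 and 32.6 RPKM in +/+, where +/+ 5 alone was low, and at 70.8, 54.6, 95.8 and 108 RPKM in Δ/D329A.

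Reads of the same stretch were counted in the ChIP-seq libraries, which the authors quantified in tiles of 2 kb as reads scaled to library size (RPM). The library totals implied by these values match the uniquely mapped reads that the study lists. A read wholly inside the copied stretch has no unique place, so low counts there do not measure the DNA present. The tile from 7001 to 9000 of the mitochondrial genome held 0 reads in all 24 libraries, input included. Counting error alone allows up to 0.0993 to 0.237 RPM at 3 reads per library, which is not a limit on the DNA present. The tiles outside the stretch averaged 39.8 to 130 RPM in the 6 input libraries. The 3 chromosome 1 tiles that lie wholly inside the nuclear copy held at most 0.138 RPM, against medians of 0.748 to 0.973 RPM in input over the 35 tiles around it. Placed reads were thus nearly missing from both copies, in both genotypes and with every antibody. The plot of tile reads along the mitochondrial genome shows the same trough in each library. The part of read placement in this trough was not tested. In H3K4me3 libraries the tiles around the nuclear copy had medians of only 0.0645 to 0.251 RPM, too low to show a depletion inside it.

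**Figure D2:**
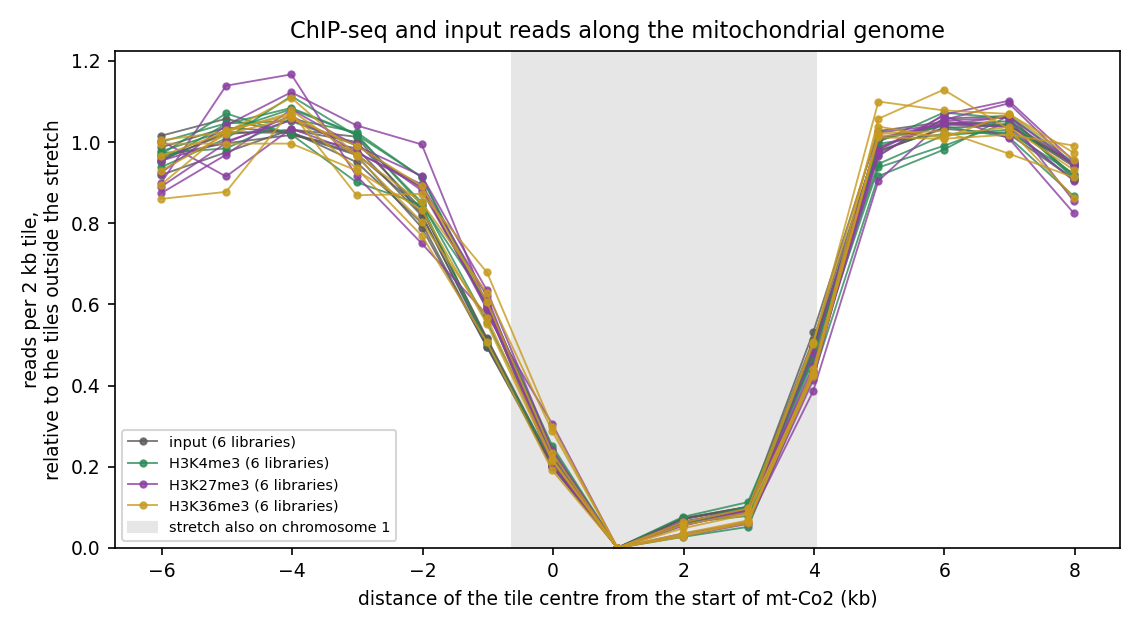
Reads per 2 kb tile along the mitochondrial genome, relative to the mean of the tiles outside the copied stretch (shaded), against the distance of the tile centre from the start of mt-Co2 in kb. Each line is 1 of 24 ChIP-seq or input libraries, and all fall to 0 in the tile from 7001 to 9000.

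Outside the copied stretch, input reads give a measure, not used by the rule, of the mitochondrial DNA recovered in the native chromatin preparation. Over the tiles of the mitochondrial genome the mean log2 RPM in input was 5.40, 3.73 and 4.44 in +/+ and 4.03, 4.65 and 4.63 in Δ/D329A. The groups overlapped, with the highest and the lowest value both in +/+. The difference was −0.09 (exact permutation test, two-sided, p = 1.0, where 3 against 3 cannot go below 0.1). It ranged from −0.49 to 0.35 when 1 library was left out, a range that spans both directions. A tile without a read entered at a fraction of 1 read, which depends on depth. Over the tiles outside the copied stretch the input difference was −0.08. In H3K4me3, H3K27me3 and H3K36me3 libraries the mean over all tiles differed by 0.61, 0.31 and 0.19, with exact permutation p of 0.2, 0.8 and 0.6. The mitochondrial signal outside the stretch set +/+ 3 and Δ/D329A 2 and 3 apart in the H3K27me3 series, at 28.2 to 57.4 RPM against 6.48 to 16.1 RPM in the other 3 libraries, and in the H3K4me3 series, at 46.0 to 70.2 RPM against 23.3 to 30.3 RPM, and both sets hold both genotypes.

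Of the 92 nuclear members, 70 had a higher mean in Δ/D329A and 22 a lower one, where 59.6% of all genes tested were higher. Their median difference of 0.14 compares with 0.06 over all genes. It moved with the libraries: +/+ 1 had the highest level of 66 members and +/+ 5 the lowest of 62, and the median was 0.29 without +/+ 1 and −0.007 without +/+ 5. Against +/+ 4 and 5 alone it was 0.56, where the median over all genes was 0.35. The mean log2 level of the nuclear members was 2.91 in +/+ 5, 3.13 in +/+ 4 and 3.17 in Δ/D329A 2, and 3.41 to 4.0 in the other 6 libraries. The 3 low libraries are those with the smallest share of reads on genes, at 33.3% to 36.8% against 42.9% to 54.3%, and the part of that share in the differences was not tested.

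**Figure D3:**
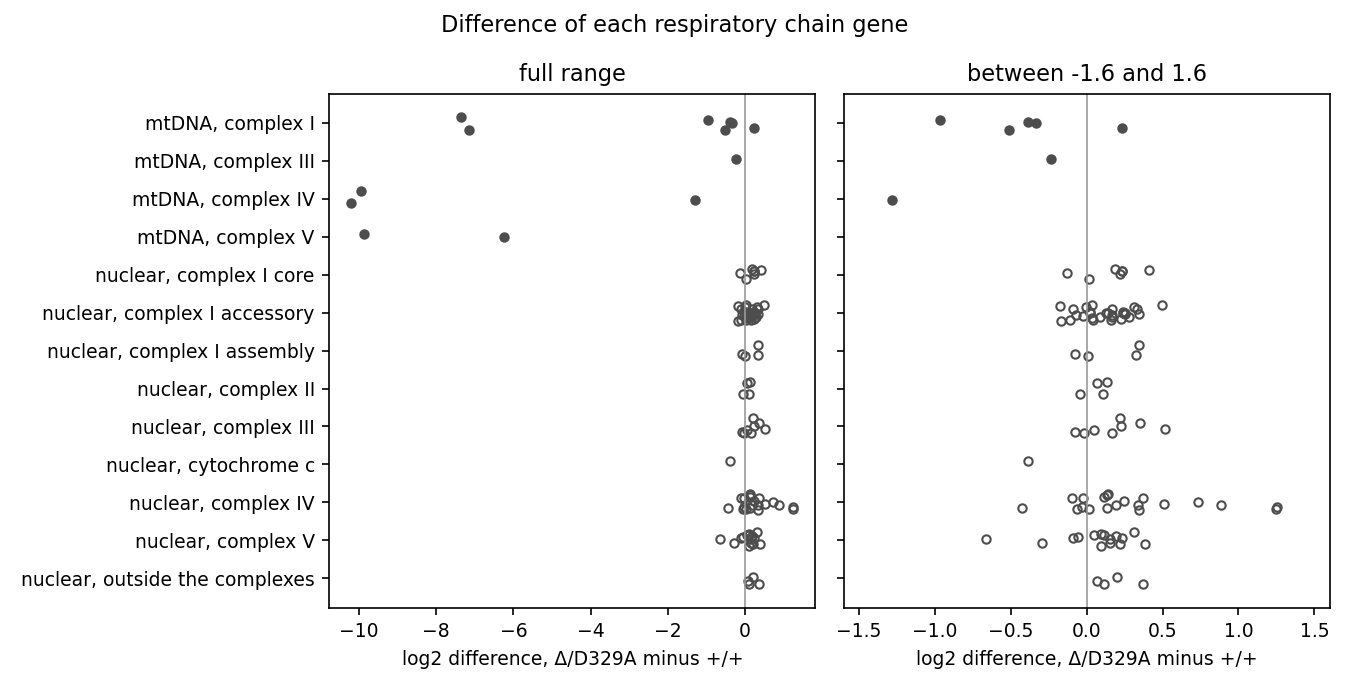
Log2 difference in expression, Δ/D329A minus +/+, of each of the 105 genes by genome and complex, over the full range (left) and enlarged (right), where genes beyond the axis are left out. Filled circles are mitochondrial and open circles nuclear genes, 6 mitochondrial genes lie at −6.25 or below, and every nuclear gene lies between −0.66 and 1.25.

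Complex I takes electrons from NADH. Its 7 nuclear core subunits, which hold the flavin and iron-sulphur centres, were at 11.3 to 36 RPKM by the geometric mean over 9 libraries, 6 higher and 1 lower in Δ/D329A, with a median difference of 0.22. Of its 29 accessory subunits 22 were higher and 7 lower (median 0.14). Ndufb9 had the highest level of them, 66.7, 51.4, 58.3, 37.1 and 32.7 RPKM in +/+ and 55.8, 31.0, 58.4 and 54.1 RPKM in Δ/D329A. Ndufab1, the acyl carrier protein, had the lowest, at 1.5 ± 0.238 RPKM in +/+ and 1.49 ± 0.542 RPKM in Δ/D329A. The groups overlapped in both genes, and the differences were 0.02 and −0.07. Ndufc2, a membrane arm subunit, was at 26.9 ± 10.2 and 23.2 ± 6.80 RPKM (difference −0.18, SE 0.29). Among the 4 assembly factors Ndufaf3 had the highest level (7.95 ± 2.40 and 9.68 ± 1.40 RPKM, difference 0.33) and Ndufaf4 the lowest (3.66 ± 0.476 and 3.49 ± 0.547 RPKM, difference −0.08).

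Complex II, succinate dehydrogenase, is the complex without a mitochondrially encoded subunit. Its 4 genes spanned an order of levels from Sdha, the flavoprotein, at 42.2 ± 11.7 RPKM in +/+ and 44.3 ± 4.81 RPKM in Δ/D329A, down to Sdhc, a membrane anchor, at 6.61 ± 2.26 and 6.19 ± 1.08 RPKM. Between them lay Sdhb, the iron-sulphur subunit (21.7 ± 7.11 and 21.7 ± 1.82 RPKM), and Sdhd, the other anchor (17.7 ± 5.75 and 19.0 ± 4.23 RPKM). Sdhb was above Sdhd in every library, though their ranges overlapped. The differences between the genotypes were 0.11, −0.05, 0.07 and 0.13 for Sdha, Sdhc, Sdhb and Sdhd, each smaller than its SE of 0.21 to 0.25. Cycs, cytochrome c, the carrier between complexes III and IV, was at 10.7, 5.69, 14.9, 9.70 and 9.34 RPKM in +/+ and 6.24, 8.60, 11.6 and 4.73 RPKM in Δ/D329A. The groups overlapped (difference −0.39, SE 0.30), and 37.5% of the 50-base stretches of Cycs occur elsewhere in the genome.

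Complex III hands electrons from ubiquinol to cytochrome c. Of its 8 nuclear members 6 were higher and 2 lower in Δ/D329A (median 0.19). Uqcrc1, a core protein, had the highest level, at 48.4 ± 18.3 RPKM in +/+ and 53.7 ± 5.63 RPKM in Δ/D329A. Uqcrq, a small subunit bound to cytochrome b, had the lowest and also the largest difference of the complex. It was at 6.03, 8.84, 10.6, 4.90 and 7.55 RPKM in +/+ and 5.37, 11.7, 16.6 and 11.4 RPKM in Δ/D329A, where Δ/D329A 1 lay within the +/+ range and the other 3 above it (difference 0.52, SE 0.32, limma adjusted p = 0.505).

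Complex V makes ATP. Of its 15 nuclear members 11 were higher and 4 lower in Δ/D329A (median 0.11). Atp5a1, the alpha subunit of the catalytic head, was the highest of them, at 167, 120, 127, 85.7 and 65.0 RPKM in +/+ and 130, 101, 119 and 129 RPKM in Δ/D329A. The groups overlapped, with +/+ 1 on top and +/+ 5 lowest (difference 0.15, SE 0.27). Atp5l, the g subunit of the membrane part, was the lowest and had the most negative difference of all nuclear members, −0.66 (SE 0.87). It was at 4.79, 3.0, 3.07, 2.65 and 1.51 RPKM in +/+ and 3.88, 0.167, 5.89 and 2.64 RPKM in Δ/D329A, so that the difference came from Δ/D329A 2, and 84.0% of its 50-base stretches occur elsewhere. Atp5g1, Atp5g2 and Atp5g3 encode the same mature subunit c of the proton-driven ring, and in +/+ they were at 3.08 ± 1.35, 17.7 ± 8.28 and 20.6 ± 6.77 RPKM. In every library Atp5g3 lay above Atp5g2, though the ranges of these genes overlapped. In Δ/D329A the levels were 3.19 ± 0.374, 14.6 ± 6.25 and 20.9 ± 5.0 RPKM, with differences of 0.15, −0.30 and 0.05.

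Complex IV, cytochrome c oxidase, holds the member with the highest nuclear level and those with the lowest. Of its 20 members, Ndufa4 and Ndufa4l2 included, 15 were higher and 5 lower in Δ/D329A (median 0.16). Cox4i1 was at 228, 147, 179, 108 and 92.9 RPKM in +/+ and 184, 124, 181 and 173 RPKM in Δ/D329A. The groups overlapped, with +/+ 1 highest and +/+ 5 lowest (difference 0.19, SE 0.29). The level of Cox4i1 stood below that of mt-Cytb or mt-Nd1 in each of the 9 libraries. Several subunits of this complex exist as a form made in most tissues and another known from heart and skeletal muscle, lung or testis, and the hypothalamus expressed the former.

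The general forms were well expressed. Cox6a1 was at 61.3 ± 26.7 RPKM in +/+ and 74.6 ± 21.8 RPKM in Δ/D329A, Cox6b1 at 71.1 ± 22.1 and 83.0 ± 19.1 RPKM, and Cox7b at 26.5 ± 7.61 and 28.8 ± 6.68 RPKM. Cox7a2 was at 42.6 ± 13.6 and 45.3 ± 6.38 RPKM and its relative Cox7a2l, a supercomplex factor, at 48.5 ± 19.2 and 45.8 ± 10.7 RPKM. Ndufa4, first assigned to complex I, was at 85.1 ± 26.5 and 90.2 ± 17.6 RPKM. The differences of these 6 genes lay between −0.02 and 0.34, and the groups overlapped in each. Cox8a was at 68.7, 21.5, 48.0, 24.4 and 24.2 RPKM in +/+ and 39.0, 14.7, 35.8 and 18.6 RPKM in Δ/D329A, with +/+ 1 and 3 above the rest of their group (difference −0.43, SE 0.41).

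The restricted forms had lower levels than the general ones, and 4 rows of the set had hardly any reads. Cox8b, the muscle form, had 2 reads in +/+ 1 and 0 in the other 8 libraries, and Cox8c, the testis form, had 1 read in +/+ 4 and 0 in the other 8. The pseudogene Atp5l-ps1 had none in the 9 libraries. These 3 rows passed the filter through the convention of 0.9 reads, and their differences of 0.14, 0.34 and 0.37 rest on that convention and on 3 reads in all. Without them, 67 of 89 nuclear members were higher, and the median remained at 0.14. Cox7b2, another testis form, had 1, 0, 0, 3 and 0 reads in +/+ and 4, 0, 6 and 1 in Δ/D329A, and the groups overlapped (difference 1.25, SE 0.55, limma adjusted p = 0.351).

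The forms with a few reads in every library had overlapping groups as well. Ndufa4l2, a relative of Ndufa4 known from hypoxia and from pericytes, had the largest positive difference together with Cox7b2. It was at 0.963, 0.266, 0.623, 0.202 and 0.247 RPKM in +/+ and 1.14, 0.990, 0.784 and 0.749 RPKM in Δ/D329A, with +/+ 1 inside the Δ/D329A range (difference 1.25, SE 0.44, limma adjusted p = 0.351). Cox4i2, the lung form of Cox4i1, was at 0.759, 0.162, 0.474, 0.164 and 0.226 RPKM in +/+ and 0.520, 0.724, 0.668 and 0.342 RPKM in Δ/D329A (difference 0.89, SE 0.47). Again +/+ 1 was the highest of its group and above all Δ/D329A libraries. Cox6b2, the testis form, was at 0.613 ± 0.376 and 0.924 ± 0.328 RPKM (difference 0.74, SE 0.46), Cox7a1, the muscle form, at 1.34 ± 0.446 and 1.34 ± 0.550 RPKM, and Cox6a2, also of muscle, at 1.13 ± 0.492 and 2.01 ± 1.99 RPKM. In Cox6a2 the Δ/D329A mean came from Δ/D329A 1, at 4.98 RPKM against 0.801 to 1.16 RPKM in the other 3. The summed level of the muscle markers Ckm, Acta1, Myh7, Myh6 and Myl2 was 1.51 to 3.06 RPKM in +/+ and 1.82 to 2.52 RPKM in Δ/D329A, and 2 of the 5 passed the filter.

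**Figure D4:**
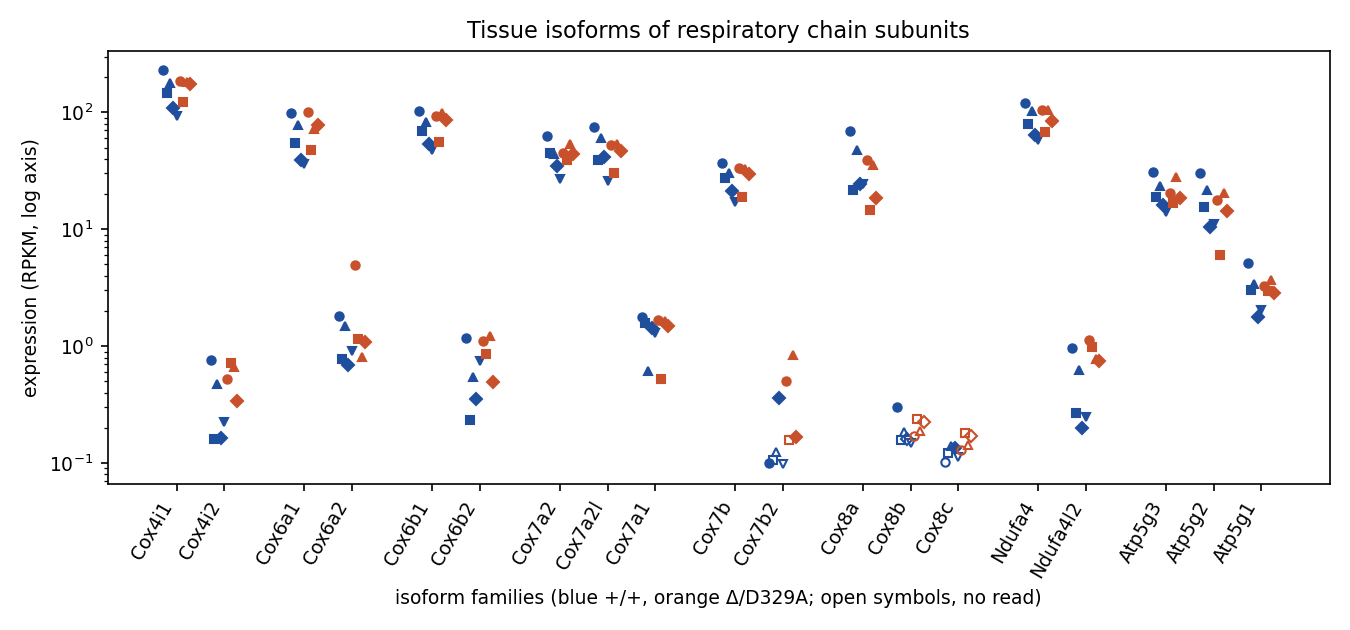
Expression (RPKM, log axis) of general and tissue-restricted isoforms in 9 libraries, blue for +/+ and orange for Δ/D329A, with circle, square, triangle, diamond and inverted triangle for replicates 1 to 5. Open symbols mark libraries without a read, which stand at the value of 0.9 reads, and Cox8b and Cox8c have no read in 8 of the 9 libraries.

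Of the 92 nuclear members, 22 had exact copies of over 10% of their 50-base stretches elsewhere in the genome, and 45 had none. Of all rows with a transcript 15.8% passed the same limit. The 22 copied members were split into 12 higher and 10 lower (median 0.06) and the other 70 into 58 higher and 12 lower (median 0.16). Reads in copied stretches cannot be placed by sequence. The values of Atp5l, Atp5l-ps1, Cox7a2l, Uqcrb, Atp5h and Ndufs5, with 84.0%, 55.1%, 51.1%, 49.6%, 43.1% and 42.2%, are therefore uncertain.

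The machinery that serves the mitochondrial genome was measured in the same fit, and 0 of the genes in these lists and those of the next paragraph were called by limma, with 6 of 235 at an unadjusted p under 0.05, against 0.106% and 7.65% of all genes. Of 17 genes for mitochondrial transcription and RNA handling 5 were higher and 12 lower in Δ/D329A (median −0.11), with Tfb2m, a transcription factor of the mitochondrial polymerase, at −0.41 and Tbrg4 at 0.20. Of 8 genes for replication of mitochondrial DNA 3 were higher (median −0.07), with Polg2 at −0.44 and Top1mt at 0.46. Of 10 nuclear regulators 5 were higher (median 0.02), among them Nrf1 at 0.22 and Pprc1 at 0.35. Sirt1 was at −0.19 (limma adjusted p = 0.688), whereas the study, which used DESeq, names it among its downregulated genes. Of 21 assembly factors and subunits with other symbols 10 were higher (median −0.01), with Cox18 at −0.50 and Cox10 at 0.38. None of these values passed the test, and the medians of these 4 lists lay below the 0.06 of all genes.

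Lists of other mitochondrial and ribosomal genes are set beside them. Of 76 mitochondrial ribosomal proteins 58 were higher in Δ/D329A (median 0.10), and of 79 cytosolic ones 65 (median 0.14). Of 13 citrate cycle genes 9 were higher (median 0.09), and of 11 genes of mitochondrial membrane channels and import 7 (median 0.03). Of 62 genes tested in the 13 marker lists of cell types, limma called 0, and 12 were at an unadjusted p under 0.05, against 7.65% of all genes. The summed level of the choroid plexus markers was 3.95 to 5.29 RPKM in +/+ and 4.41 to 8.5 RPKM in Δ/D329A. Of the 5 choroid plexus genes tested 3 were higher and 2 lower in Δ/D329A. Ttr was at 1.82 (limma adjusted p = 0.19), and Kl and Clic6 were at −0.43 and −0.35. Sums were 160 to 257 and 188 to 249 RPKM for neurons, 103 to 153 and 112 to 176 RPKM for astrocytes, and 289 to 448 and 201 to 376 RPKM for oligodendrocytes. They were 19.4 to 39.2 and 23.4 to 38.5 RPKM for microglia, 14.5 to 30.4 and 18.9 to 24.7 RPKM for endothelium, and 13.4 to 42.3 and 34.3 to 45.9 RPKM for erythroid cells. Anterior pituitary was at 0.632 to 17.0 and 3.22 to 11.8 RPKM, striatum at 2.71 to 5.87 and 4.63 to 5.25 RPKM, and thalamus at 44.6 to 75.8 and 65.1 to 80.9 RPKM. The groups overlapped in each of these sums. The part of these cells in the members' differences was not tested.

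RefSeq promoter sequences (GRCm38.p6, 250 bases before to 50 after the start) were matched to 75 of the 92 members. The median member promoter held 20 CpG in 300 bases, against 7 over all 32851 promoters. The NRF1 motif GCGCANGCG, searched on both strands like the others, was found in 28.0% of the member promoters and in 6.25% of all. The ETS motif CCGGAAG was found in 21.3% and 8.86%, and the YY1 motif AAGATGGCG in 9.33% and 1.40%. The SP motif GGGCGG was found in 45.3% and 35.7%, and TATAAA in 9.33% and 13.6%. All these motifs but TATAAA hold a CpG, and the promoters compared were not matched for CpG. A match describes letters and is not a binding site.

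Sequences of 250 bases before the start are printed for Cycs and Sdhd, which hold the NRF1 motif, for Uqcrh, which had the most H3K4me3 of all members, and for Cox7b2, which had among the least and was nearly silent. All 4 genes lie on the minus strand, the sequences are given along the gene, and capitals mark the NRF1 motif in Cycs, the NRF1 and ETS motifs in Sdhd, the ETS motif in Uqcrh and the TATAAA and SP motifs in Cox7b2, each as read on either strand.
Cycs, chr6:50566570-50566819: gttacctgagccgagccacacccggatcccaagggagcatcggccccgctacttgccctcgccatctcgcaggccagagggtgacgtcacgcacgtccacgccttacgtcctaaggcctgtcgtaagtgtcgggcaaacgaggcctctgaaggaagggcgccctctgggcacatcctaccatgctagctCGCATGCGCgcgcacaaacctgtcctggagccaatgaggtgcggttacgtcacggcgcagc
Sdhd, chr9:50603850-50604099: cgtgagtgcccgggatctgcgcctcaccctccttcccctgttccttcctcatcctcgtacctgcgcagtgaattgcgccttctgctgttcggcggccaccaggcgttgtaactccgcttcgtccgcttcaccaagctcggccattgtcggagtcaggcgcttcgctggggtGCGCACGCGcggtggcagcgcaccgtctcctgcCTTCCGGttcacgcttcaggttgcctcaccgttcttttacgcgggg
Uqcrh, chr4:116075071-116075320: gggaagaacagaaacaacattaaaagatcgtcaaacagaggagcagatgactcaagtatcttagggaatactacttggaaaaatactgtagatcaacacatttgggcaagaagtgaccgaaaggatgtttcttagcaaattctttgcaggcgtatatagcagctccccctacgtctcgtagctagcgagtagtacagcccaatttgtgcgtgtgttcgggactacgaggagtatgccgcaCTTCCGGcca
Cox7b2, chr5:71548206-71548455: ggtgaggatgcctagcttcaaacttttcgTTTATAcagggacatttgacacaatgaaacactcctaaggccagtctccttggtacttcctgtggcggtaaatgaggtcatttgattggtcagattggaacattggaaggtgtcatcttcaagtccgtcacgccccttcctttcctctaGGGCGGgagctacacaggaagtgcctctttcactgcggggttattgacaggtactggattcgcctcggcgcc

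Chromatin was read at the same promoters, in tiles from 1500 bp upstream to 500 bp downstream of each start, in libraries that did not choose the members. H3K4me3, the mark of active promoters, had a +/+ median of 21.1 RPM per tile over the 92 members, against 6.44 RPM over all promoters, and 82 of the 92 lay above that median. Uqcrh was highest, with 46.0, 43.6 and 47.2 RPM in +/+ and 34.8, 50.4 and 45.3 RPM in Δ/D329A. Ndufa11 was at 40.0 ± 3.25 RPM and Cox4i1 at 36.2 ± 2.16 RPM in +/+ (SD, n = 3). Cox8c, Atp5l-ps1 and Cox7b2 were lowest, at 0.0753, 0.164 and 0.174 RPM, where input stood at 0.817, 0.971 and 0.705 RPM.

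H3K4me3 did not pass the test at any member. Of the 92 promoters 0 were called by limma at an adjusted p under 0.05, where 0.816% of 25379 promoters were, and 1 was at an unadjusted p under 0.05, against 4.09% of all. edgeR on the recovered reads called 0 of the members and 0.621% of all. Over all promoters the 207 calls were 0 without Δ/D329A 1, 467 without Δ/D329A 2 and 70 to 93 without any 1 of the other 4 libraries, with 0 members called each time. The median difference was −0.09 over the members and −0.07 over all promoters. The smallest p was that of Cox6b2, with 4.11, 4.36 and 5.06 RPM in +/+ and 1.88, 3.39 and 2.94 RPM in Δ/D329A. The groups did not overlap there (difference −0.73, SE 0.28, limma adjusted p = 0.452). Cox6b2 was picked for its p, and the share of all promoters without overlap was not counted.

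H3K27me3, the Polycomb mark of silenced developmental genes, was nearly absent from most members. The +/+ median was 0.135 RPM, against 0.506 RPM over all promoters, and 7 of the 92 lay above that. Cox4i2 and Ndufa4l2 stood apart, the former with 3.74, 3.42 and 3.69 RPM in +/+ and 4.47, 2.77 and 4.06 RPM in Δ/D329A, and the latter with 3.11, 2.49 and 3.30 RPM and 2.39, 2.92 and 3.40 RPM. Input was at 0.943 and 1.02 RPM, and the groups overlapped in both (differences 0.03 and −0.04). The next was Atp5l-ps1 at 0.804 RPM, below its input. Ndufs1, Ndufs8 and Cox7b were lowest, at 0.0310, 0.0365 and 0.0383 RPM in +/+.

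At H3K27me3, too, 0 of the 92 members were called, where limma called 0.881% of 25529 promoters and edgeR 0.95%. At an unadjusted p under 0.05 were 5 members, Ndufb2, Sdhc, Atp5o, Cox7c and Cox7a2, all lower in Δ/D329A and all with a +/+ mean below input, against 9.57% of all promoters. The smallest adjusted p was 0.324, for Ndufb2, with 0.126, 0.30 and 0.273 RPM in +/+ and 0.101, 0.0382 and 0.0508 RPM in Δ/D329A. Its groups did not overlap (difference −1.0, SE 0.39), but Ndufb2 was picked for its p, and the share of all promoters without overlap was not counted. Leaving out 1 library gave 34 to 221 calls over all promoters, against 225, and 0 members. The median difference over the members was −0.19 and that over all promoters −0.03.

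**Figure D5:**
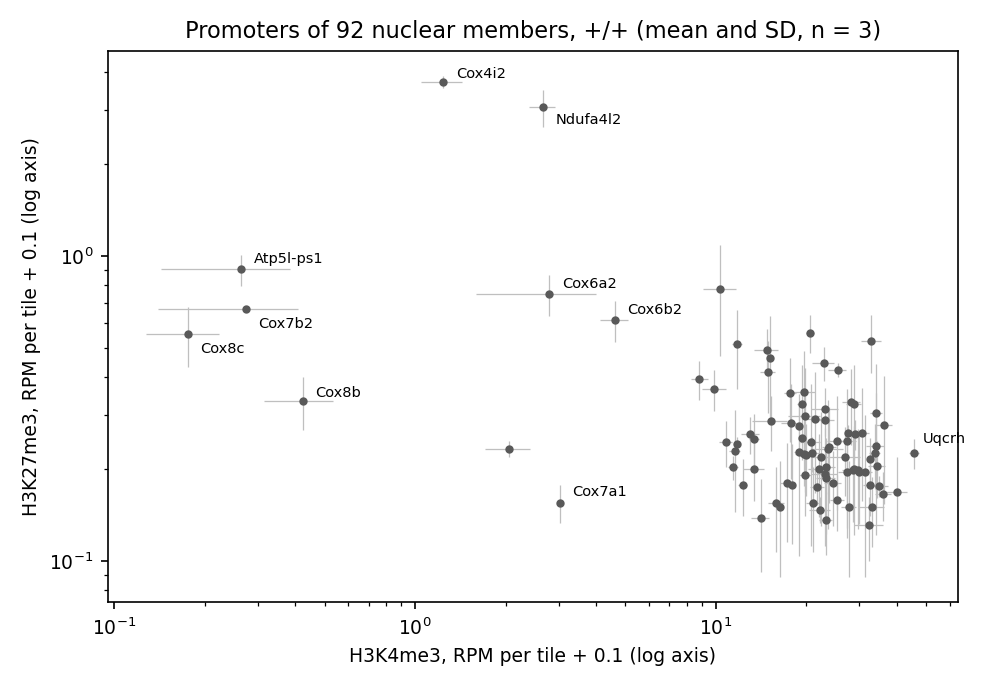
H3K4me3 against H3K27me3 at the promoters of the 92 nuclear members in +/+ hypothalamus (RPM per 2 kb tile plus 0.1, log axes), points for means and bars for the SD of 3 libraries. Most members lie together at high H3K4me3 and low H3K27me3, Cox4i2 and Ndufa4l2 lie at 3.62 and 2.97 RPM of H3K27me3, and Cox8c, Atp5l-ps1 and Cox7b2 lie lowest in H3K4me3.

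H3K36me3, the mark laid along transcribed genes and the one the PWWP domain binds, was averaged over gene bodies of 91 members, since no tile centre falls in Atp5l-ps1. The +/+ median was 1.54 RPM, against 0.743 RPM over all genes, and 80 members lay above that. Uqcrb was highest at 3.77 ± 0.317 RPM in +/+, followed by Atp5b, the beta subunit of complex V, at 3.18 ± 0.153 RPM and Atp5g2 at 2.83 ± 0.159 RPM. Cox6b2, Cox6a2 and Atp5k, the e subunit of complex V, were lowest at 0.155, 0.264 and 0.328 RPM. Of the 91 bodies 0 were called by limma, as of all 24852 (0%), and edgeR called 0 members and 0.704% of all.

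At an unadjusted p under 0.05 were 16 of the 91 bodies, against 14.8% of all, and the median difference was −0.07 against −0.02. Ndufs8, a core subunit of complex I, had the smallest p, with 1.61, 1.42 and 1.71 RPM in +/+ and 2.11, 2.22 and 2.27 RPM in Δ/D329A, which did not overlap (difference 0.45, SE 0.07, limma adjusted p = 0.25). Cox7a1 followed, with 1.84, 1.71 and 2.41 RPM in +/+ and 1.29, 1.23 and 1.39 RPM in Δ/D329A (difference −0.56, SE 0.12, limma adjusted p = 0.25). Cox6c, a small subunit of complex IV, was at 2.05, 1.95 and 2.03 RPM in +/+ and 1.67, 1.75 and 1.78 RPM in Δ/D329A (difference −0.21, SE 0.05, limma adjusted p = 0.25). Atp5g2 was at 2.76, 2.71 and 3.01 RPM in +/+ and 2.45, 2.21 and 2.02 RPM in Δ/D329A (difference −0.33, SE 0.08, limma adjusted p = 0.25). In Cox7a1, Cox6c and Atp5g2 all +/+ libraries lay above all Δ/D329A libraries. These genes and Ndufs8 are given here for their small p, and the share of all bodies without overlap was not counted. Nothing is read from the lack of overlap.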

How the data were processed

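RNA-seq of hypothalamus was analysed in 5 +/+ and 4 Δ/D329A libraries and native ChIP-seq in 24. The authors deposited expression per gene as log2 RPKM, made from 50 bp single-end reads after Ribo-Zero depletion, and left 1 further Δ/D329A library out. ChIP-seq was deposited as signal, reads scaled to library size (RPM) in 2 kb tiles every 1 kb. The submitters' processing notes name GRCm38, Trim Galore 0.4.3, HISAT2 2.0.5, Bowtie2 2.3.2 and Bismark 0.19.0. The study's methods name other versions of these tools, and Bowtie in place of Bowtie2 for ChIP-seq. The study called genes with DESeq at an adjusted p under 0.01 and set mitochondrial genes aside.

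Both tables gave back whole reads for 100% of values above 0, within 0.05 of a read. A gene without a read stands at 0.9 reads. Log2 RPKM was tested with limma 3.58.1 (R 4.3.3) on the 9 libraries, without covariates, for genes at 0.1 RPKM or more in at least 4 libraries, with Benjamini-Hochberg adjustment and a threshold of 0.01. edgeR 4.0.16 and DESeq2 1.42.0 on the recovered reads were alternatives. ChIP-seq was tested with limma on log2(RPM + 0.1) at a threshold of 0.05, and edgeR on recovered ChIP-seq reads was added after the data were seen. Differences are Δ/D329A minus +/+ on the log2 scale, and errors after ± are SD. Stretches of 50 bases were looked up in GRCm38, and BLAST 2.17.0 aligned the mitochondrial genome to chromosome 1. The scripts were tested on simulated data.

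The members and lists were chosen with earlier results of these data known. Named were all mitochondrial members, the highest and lowest of each nuclear group and the isoforms, the nuclear members with the largest differences, per list the extreme genes, and for each mark the 3 highest and 3 lowest members. Members named for a small p at a mark were chosen after the values were seen. The study states that replicates are single animals. Replicates of a genotype differed by more than counting noise. Floors cover counting error only. The values of 1 marker list are not reported here.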

Additional observations from a re-analysis of the deposited data

Results flagged for a closer look

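In 15 of 104 groups of 4 or 5 libraries examined, 1 library stood apart from the others of its genotype by a gap that was large for the group's range, past Dixon's 95% critical value, which chance passes in about 1 of 20 groups. The groups share libraries and are not independent. Values here are log2 RPKM. In +/+ 4, low values set it apart for mt-Co2 (−3.41), mt-Atp6 (−3.55), mt-Co3 (−2.60), mt-Nd4l (−2.35) and mt-Atp8 (−1.81), all inside the copied stretch, and its mean level of mitochondrial over nuclear members was 0.59. The other +/+ libraries had reads of all these genes. Cox7b2, with 3 reads, was high in +/+ 4 (−1.49). In +/+ 5, mt-Nd6 was low (5.03). In Δ/D329A 2, the library with the fewest reads on genes, low values were seen for mt-Nd1 (9.08), mt-Co1 (9.75), mt-Nd5 (7.74), Ndufb9 (4.95), Cox4i1 (6.95) and Cox7a1 (−0.94). In Δ/D329A 1, mt-Co2 was high (−1.32), with 4 reads.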

How the results depend on the processing

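The count of nuclear members called was 0 under all alternatives run, and the medians of the mitochondrial genes and of their level over the nuclear members were negative under all of them. Over all genes limma called 19, and 34 with median centring, 32 with quantile normalization, 35 when rescaled to reads on nuclear genes, 10 at a filter of 0.5 RPKM, 34 with array weights and 34 at an adjusted p under 0.05 (0.19%). edgeR called 79, or 82 with DESeq2 size factors (0.459%), and DESeq2 called 254, with 5, 5 and 8 mitochondrial genes in place of 0. Leaving out 1 library gave 11 to 24 genes and 0 to 6 mitochondrial genes, the most without +/+ 4 and the fewest genes without Δ/D329A 4. The mitochondrial median was then −1.47 to −1.12, the nuclear one −0.01 to 0.29, the mitochondrial minus nuclear level −5.31 to −3.93 and the input difference −0.49 to 0.35. With +/+ 4 and 5 alone against Δ/D329A, an alternative added after the data were seen, 11 genes were called and the medians were −0.60 and 0.56. Over the mitochondrial genes with under 10% copied stretches, also added, the median was −0.34 and the level over the nuclear members −0.40. The causes were not tested. Of 1078 values of 47 named genes, 991 stayed on their side of the threshold and near the main value, 63 moved, 24, all of mitochondrial genes, became called, and 69, in 25 genes, changed sign without being called.

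With the replicate block, which was run without +/+ 5, 14 genes and 0 members were called. The medians were −1.47 and −0.007, with a mitochondrial minus nuclear level of −4.19. Leaving out +/+ 5 without a block gave the same values. Same-numbered libraries correlated at 0.137, −0.051, −0.048 and −0.054, so that the numbers were not taken to pair them. At 0 reads in a library, up to 3 reads are possible by counting error.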
